A study of Mus musculus with 19 samples.

Results

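Metalloproteases cut the matrix around skeletal cells and the proteins on their surface, and their genes and those of their inhibitors were compared here across sorted skeletal progenitor populations. Members were all genes whose annotated symbol was Mmp, Adam, Adamts, Adamtsl or Timp followed by a number and at most 1 letter, with 1 Mmp gene left out by the rule. They came to 69 of the 18193 genes on the array. The rule used symbols alone, but it was chosen with earlier results of these data known. For each gene the probe set with the highest mean stood for the gene, and 32 members had several probe sets, 123 in all.

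The cells came from wild-type mice at postnatal day 3, from limbs pooled over a litter, and the growth protocol calls the mice GFP-labeled. All 6 neonatal populations shared a gate without CD45, Ter119 and Tie2 and with AlphaV integrin, and each had 3 arrays. Cells without Thy and 6C3 (Thy-6C3-), cells with Thy alone (Thy+6C3-) and cells with 6C3 alone (Thy-6C3+) were each split into a CD105- and a CD105+ population. The array labelled adult, Thy+6C3+CD105+, entered no test. Tissue was digested with collagenase before sorting. Whether the 3 arrays of a population came from separate litters was not stated in the labels, so p-values measure the spread between these arrays, which may be technical. In sorted bulk cells, fewer cells of a type and less RNA per cell cannot be told apart.

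Matrix metalloproteases (MMPs) degrade collagens and other matrix proteins, and most are made as inactive precursors. ADAM proteases are membrane proteins that shed the outer parts of receptors and ligands, although some ADAMs have no working protease. ADAMTS proteases are secreted and cut aggrecan, versican or procollagen, ADAMTS-like proteins lack the protease, and the tissue inhibitors of metalloproteases (TIMPs) block the active enzymes. In growing bone these enzymes take part in the removal of cartilage matrix and in vessel entry.

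Levels are log2 values after quantile normalization. A step is the mean of the antigen-positive population minus that of the antigen-negative population, given with the standard error (SE) of the fit. Adjusted p values are from limma with Benjamini-Hochberg adjustment over 18193 genes, and a gene counted as called at an adjusted p under 0.05. Levels of different genes rest on different probes and are not set against each other. The mean over the neonatal arrays lay below that of the median gene (6.76) for 42 of the 69 members, where array signal is weak, and above it for 27.

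The sorted antigens and the cell type markers give the setting in which the members were measured. Thy1 separated the Thy+ from the Thy- arrays and Enpep, which encodes 6C3, the 6C3+ from the 6C3- arrays. Eng, which encodes CD105, stood at 8.58 in replicate 3 of Thy+6C3-CD105- against 7.51 and 7.61 in the other replicates, within the 8.34 to 8.75 of the Thy+6C3-CD105+ arrays. Replicate 2 of Thy-6C3+CD105- had the highest deposited median, 6.02, against 5.60 to 5.91 in the other arrays. Counts of called members that changed without these 2 arrays are therefore also given. Replicates 2 and 3 of Thy-6C3+CD105- carry titles that name Thy+, while Thy1 was at 5.78 and 5.95 there. The mean of 7 chondrocyte markers was 12.58 to 12.75 on the Thy-6C3- arrays, 9.60 to 10.44 on the Thy+ arrays and 10.44 to 10.97 on the 6C3+ arrays. The mean of 5 pericyte and smooth muscle markers was 10.60 to 10.62 on the Thy+6C3-CD105+ arrays, 8.29 to 8.51 on the Thy+6C3-CD105- arrays and 7.47 to 7.92 on the Thy-6C3- arrays. The mean of 5 keratinocyte markers was 6.56 to 7.42 on the Thy+6C3-CD105- arrays and 5.24 to 5.32 on the Thy+6C3-CD105+ arrays. The mean of 6 tendon and fibrous markers was 10.90 to 11.28 on the Thy+ arrays and 8.82 to 9.36 on the Thy-6C3- arrays, with 5 of 6 called higher in both Thy steps. The mean of 4 osteoblast markers was 4.27 to 5.36 on the Thy+ arrays and 6.80 to 8.41 on the Thy-6C3- arrays. In the Thy step of CD105- cells 3 of 7 macrophage markers were called higher, with array means of 6.19 to 6.69 against 5.62 to 5.80. These marker levels moved with the steps described here, and their part in the results was not tested.

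The promoters of Mmp3, Mmp11 and Adamts20 are shown because these genes had different patterns over the populations: Mmp3 was highest in Thy-6C3+CD105+ cells, and Mmp11 and Adamts20 in Thy+6C3-CD105+ cells. Each is the 250 bases before the RefSeq start (GRCm38.p6), written along the gene's strand. The Mmp3 promoter lies at chr9:7445572-7445821 on the plus strand, the Mmp11 promoter at chr10:75932503-75932752 on the minus strand, and the Adamts20 promoter at chr15:94404351-94404600 on the minus strand. Capitals mark matches to TGANTCA (the AP-1 core), TATAAA (the TATA box) and GGGCGG (the GC box bound by Sp1), searched on both strands.
Mmp3: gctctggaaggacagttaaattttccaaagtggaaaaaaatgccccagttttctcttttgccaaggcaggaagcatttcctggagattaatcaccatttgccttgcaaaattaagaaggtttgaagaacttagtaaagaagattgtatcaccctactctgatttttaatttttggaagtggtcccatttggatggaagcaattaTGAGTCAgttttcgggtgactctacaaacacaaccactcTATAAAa
Mmp11: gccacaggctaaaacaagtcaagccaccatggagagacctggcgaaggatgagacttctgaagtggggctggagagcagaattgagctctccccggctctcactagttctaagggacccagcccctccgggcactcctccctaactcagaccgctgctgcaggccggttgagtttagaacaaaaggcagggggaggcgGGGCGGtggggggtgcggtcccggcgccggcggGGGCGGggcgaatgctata
Adamts20: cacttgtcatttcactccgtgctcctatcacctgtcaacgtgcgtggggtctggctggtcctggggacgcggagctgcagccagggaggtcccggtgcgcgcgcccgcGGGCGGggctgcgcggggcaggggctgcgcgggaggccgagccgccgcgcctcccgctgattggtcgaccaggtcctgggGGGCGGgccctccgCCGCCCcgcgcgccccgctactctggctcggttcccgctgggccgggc

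The Mmp3 window held 1 TGANTCA and 1 TATAAA match and no GGGCGG. Mmp11 held 2 GGGCGG matches and Adamts20 held 3, with 1 of them on the other strand, and neither held the other motifs. Of 45 member promoters, from 40 genes, 9 (20%) held TGANTCA, against 6.75% of all 32851 promoters of this length. TATAAA was in 22.2% of member promoters against 12.4% of all, and GGGCGG in 42.2% against 32.7%. Of the 9 genes with TGANTCA, 7 belong to a row of 8 neighbouring Mmp genes on chromosome 9, and the expression of the row is given with Mmp3. Mmp1a, Mmp1b, Mmp3, Mmp7, Mmp10 and Mmp20 of this row are also among the 10 genes with TATAAA. A match is a description of the letters, not a binding site.

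Across all 6 populations, 14 of the 69 members (20.3%) differed by the F-test, against 10.1% of all genes. The members' calls fell on low as well as high levels: 7 of the 27 members above the median gene mean were called, and 14.4% of all genes above it. Of the 14, 9 were highest in a Thy+ population, 7 of them in Thy+6C3-CD105+ cells. These 7 were Adam22, Adamts5, Adamts12, Adamts15, Adamts20, Mmp11 and Mmp23, while Adamts8 and Adamtsl1 were highest in Thy+6C3-CD105- cells. Adamts15 was near a tie, at means of 6.93 and 6.90 in these populations. Mmp3 and Mmp9 were highest in Thy-6C3+CD105+ cells and Mmp2 in Thy-6C3+CD105- cells, at 13.45 against 13.43 in Thy+6C3-CD105- cells. Over all 69 members, 27 were highest in Thy+6C3-CD105- cells and 16 in Thy+6C3-CD105+ cells. The like shares of all genes are not given, so these counts are not read as a trait of the family. Adamts6 was highest in Thy-6C3-CD105- cells and Mmp16 in Thy-6C3-CD105+ cells. The F-test calls of Adam22, Adamts8, Adamts15, Adamts20, Mmp9, Mmp11 and Mmp23 held under every alternative run for them and every left-out array. The calls of Adamts5 and Mmp2 were the least steady: Adamts5 (adjusted p = 0.0440 by limma) was lost in 10 of 18 fits that left out 1 array, and Mmp2 in 5 of 11 alternatives.

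**Figure D1:**
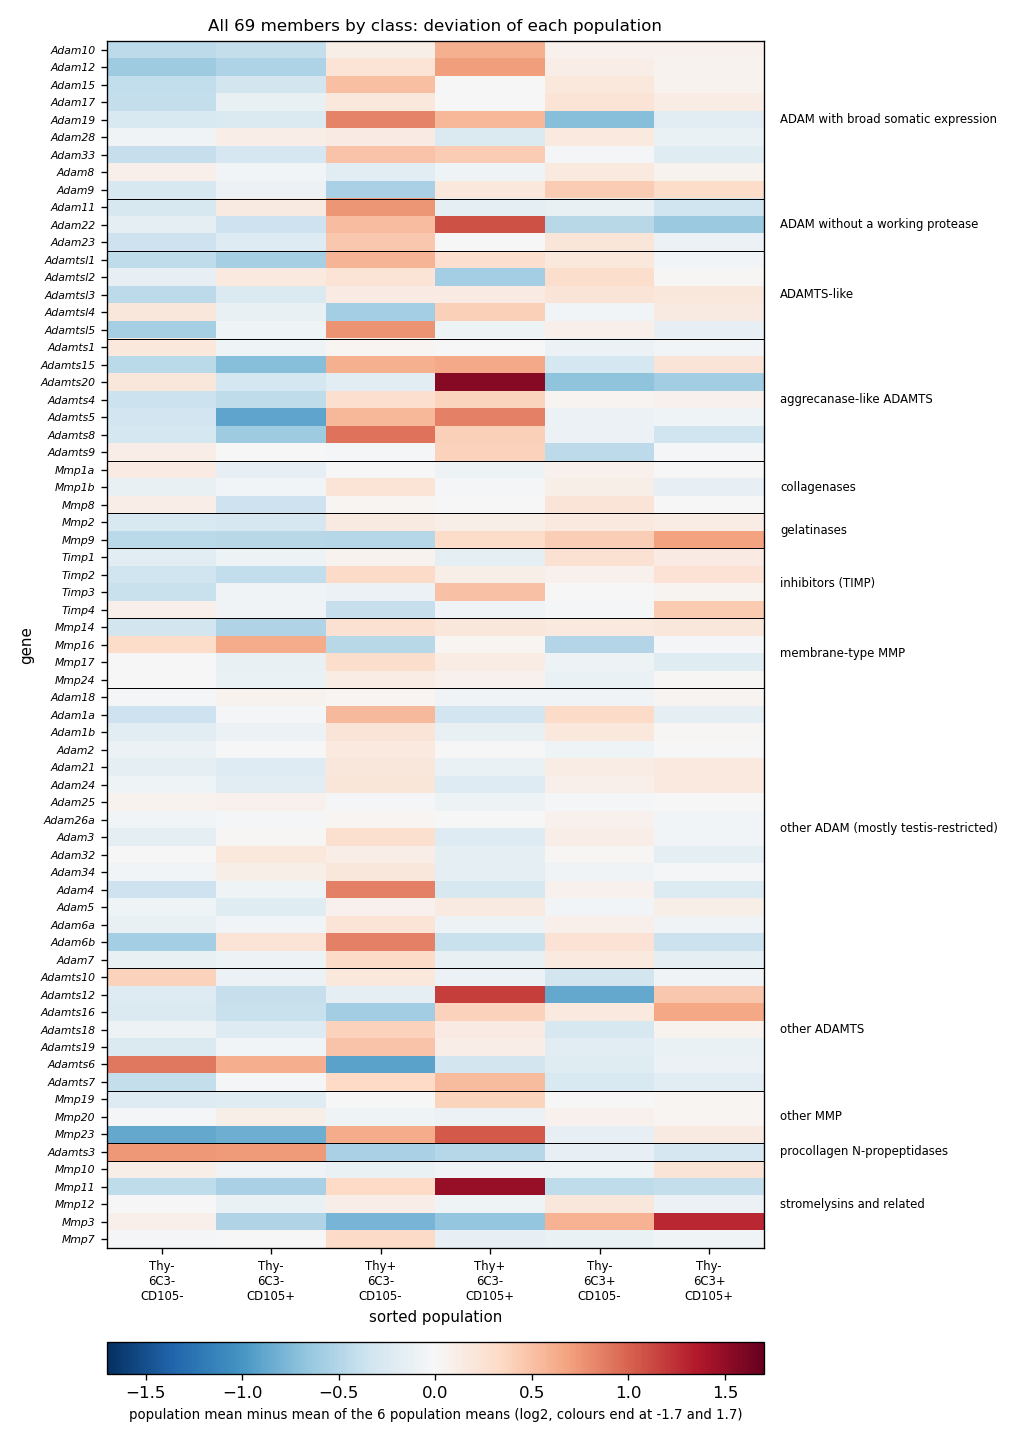
Deviation of each population mean from the mean of the 6 population means (log2, red higher, blue lower) for all 69 members in their classes, with genes in rows and the sorted populations in columns. Mmp11, Adamts12 and Adamts20 are among the deepest red in Thy+6C3-CD105+ cells and Mmp3 in Thy-6C3+CD105+ cells, and the colours end at -1.7 and 1.7.

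Thy+ cells against Thy- cells in the CD105+ background (both 6C3-) held calls for 12 of 69 members (17.4%), against 6.66% of all genes. All 12 were higher and 0 lower, while of all genes 4.03% were called higher and 2.63% lower. With array weights 22 members were called, 19 higher and 3 lower, against 15.9% of all genes, and without the arrays in doubt 17, 14 higher and 3 lower, against 9.87%. Above the median gene mean, 8 of 27 members were called, against 9.12% of all such genes. The median change of the members was 0.13 and of all genes -0.02. Groups did not overlap for 21 members that were higher and 5 that were lower, against 26.2% of all genes in either direction.

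Among the MMPs, Mmp23 and Mmp11 rose in this step. Mmp23, a membrane-anchored MMP without the usual hemopexin domain, stood at 10.67, 10.87 and 10.92 in Thy+6C3-CD105+ cells and at 9.22, 8.75 and 8.88 in Thy-6C3-CD105+ cells. All Thy+ arrays were above all Thy- arrays, and the step was 1.87 ± 0.18 (SE), 3.65-fold (adjusted p = 3.37e-06). Mmp11, stromelysin-3, which furin activates inside the cell, stood at 7.78, 8.12 and 8.07 against 6.22, 5.99 and 5.67. Its step was 2.03 ± 0.30, 4.09-fold (adjusted p = 0.000199), with no overlap, and Mmp11 had 6.93, 6.60 and 7.04 in Thy+6C3-CD105- cells, below all Thy+6C3-CD105+ arrays. Mmp14, the membrane-type MMP that activates Mmp2, stood at 11.98, 12.27 and 12.51 against 11.51, 11.52 and 11.60. The groups were apart, the step was 0.71 ± 0.21 (adjusted p = 0.0481), and leaving out 1 array kept the call in 1 of 6 cases. Its other probe sets, at means of 9.15 and 7.18, changed by 0.34 and 0.24. With the mean of its probe sets the Mmp14 step was 0.43 (adjusted p = 0.461 by limma).

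The aggrecanase-like ADAMTS genes held 4 of the 12 rises among their 7 members, with a median change of 1.01. Adamts20, the gene altered in belted mice, stood at 5.30, 5.74 and 5.27 in Thy+6C3-CD105+ cells and at 3.57, 3.72 and 3.47 in Thy-6C3-CD105+ cells. These levels lie below the median gene mean on every array, the groups were apart, and the step was 1.85 ± 0.27, 3.61-fold (adjusted p = 0.000217). Adamts5, a main aggrecan-cutting enzyme of cartilage, stood at 8.43, 8.05 and 8.44 against 6.40, 7.22 and 6.02. Its groups were apart, the step was 1.75 ± 0.39 (adjusted p = 0.00832), and its probe sets gave 1.75, 1.66 and 1.58, with -0.13 from another at a low level (mean 3.30). Adamts15 rose by 1.37 ± 0.31 (adjusted p = 0.00977) and Adamts8 by 1.01 ± 0.24 (adjusted p = 0.0146). The Adamts8 call was kept in 3 of 6 fits that left out an array. The other aggrecanase-like genes were not called. Adamts4, another aggrecanase, stood at 8.14, 7.28 and 7.25 against 6.35, 7.13 and 6.79, a step of 0.80 ± 0.38 with adjusted p = 0.308 and a 95% interval of 0.00 to 1.60. Its groups were apart, and its other probe set (mean 6.29) changed by 2.16.

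Among the ADAMs, 2 of the 9 with broad somatic expression rose. Adam12 stood at 9.30, 9.39 and 9.48 against 7.98, 8.49 and 8.0, a step of 1.23 ± 0.33 (adjusted p = 0.0307). Adam10, a sheddase of Notch and many other membrane proteins, stood at 9.99, 10.08 and 10.19 against 9.35, 8.94 and 8.95, a 2.01-fold step (SE 0.26 on the log2 scale, adjusted p = 0.0250). Both groups of arrays were apart for each gene, and each call was kept in 1 of 6 fits that left out an array. The 3 other Adam10 probe sets had means of 5.11 to 5.96 and changes of -0.02 to 0.40. Adam22, an ADAM without a working protease that binds LGI proteins at synapses, stood at 8.32, 7.98 and 7.75 against 6.74, 6.81 and 6.22. Its groups were apart and its step was 1.43 ± 0.19 (adjusted p = 8.59e-05), while its other probe set (mean 5.48) changed by 0.10.

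Adamts12, a relative of Adamts7 that cuts cartilage oligomeric matrix protein, and Adamtsl1 complete the 12. Adamts12 stood at 9.15, 9.20 and 9.33 in Thy+6C3-CD105+ cells and at 8.13, 7.56 and 7.30 in Thy-6C3-CD105+ cells, a step of 1.56 ± 0.42 (adjusted p = 0.0273). All its Thy+6C3-CD105+ arrays were above every other neonatal array. Adamtsl1, which has the ADAMTS matrix-binding part and no protease, rose by 0.86 ± 0.25 (adjusted p = 0.0457). Both calls were kept in 1 of 6 fits that left out an array, and with the mean of its probe sets Adamts12 changed by 0.76 (adjusted p = 0.0659). Calls in this step held in all alternatives and all left-out arrays for Mmp23, Mmp11, Adamts20 and Adam22. Without replicate 3 of Thy-6C3-CD105+ the count fell to 5 of 69, without replicate 3 of Thy+6C3-CD105+ to 6 and without its replicate 2 to 7. The share of all genes called in these fits is not given, so the counts are not read against the background.

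**Figure D2:**
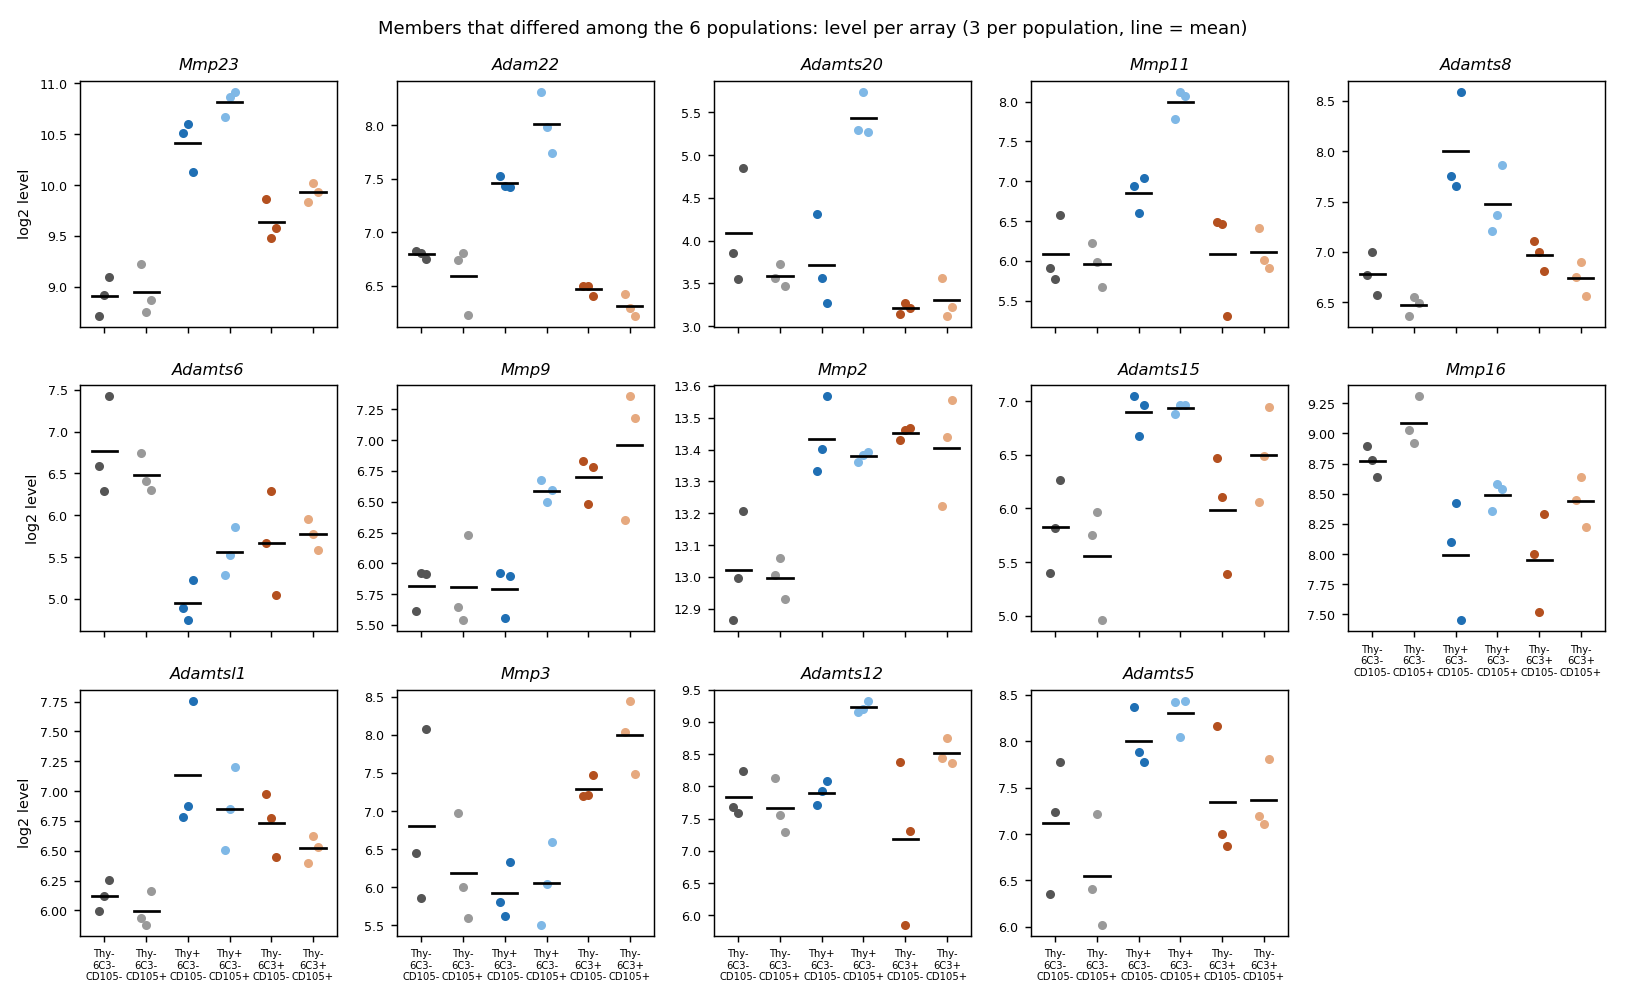
Level per array (log2) of members called by the F-test, 1 panel per gene, with 3 points per sorted population and a line at the population mean. Mmp23 lies between 10.13 and 10.92 in Thy+ cells and at or below 10.02 elsewhere, and Adamts20 reaches 5.27 or more only in Thy+6C3-CD105+ cells.

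The same antigen in the CD105- background gave 12 members higher and 3 lower, 21.7% of members against 18% of all genes called, 10.5% higher and 7.45% lower. In this fit the share is near the background, and above the median gene mean 9 of 27 members were called, against 24.4% of such genes. The share depended on the fit. With array weights 20 members (29.0%) were called, against 18.4% of all genes. With only the genes above the median gene mean tested, 12 (44.4%) were called, against 28.4%. With a common median 11 (15.9%) were called, against 19.6%. The median change was 0.34 for the members and 0.13 for all genes. Groups did not overlap for 27 higher and 5 lower members, against 34.7% of all genes. The single genes below are therefore given for their values.

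Adamts8 and Adamts15 rose in this step too. Adamts8 stood at 7.75, 7.65 and 8.59 in Thy+6C3-CD105- cells against 6.77, 7.0 and 6.57 in Thy-6C3-CD105- cells, a step of 1.22 ± 0.24 (adjusted p = 0.00281), and Adamts15 at 7.05, 6.68 and 6.96 against 5.40, 5.82 and 6.26, a step of 1.07 ± 0.31 (adjusted p = 0.0274). Both pairs of groups were apart. The genes of these secreted proteases are neighbours on chromosome 9 in the RefSeq gene order. Mmp23 stood at 10.51, 10.60 and 10.13 against 8.72, 8.92 and 9.10, apart, with a 2.83-fold step (SE 0.18 on the log2 scale, adjusted p = 2.85e-05). Adam22 stood at 7.52, 7.43 and 7.42 against 6.82, 6.81 and 6.75, a smaller step of 0.67 ± 0.19 (adjusted p = 0.0253). Its other probe set changed by 0.23, and the call was kept in 3 of 6 fits that left out an array. With the values as deposited the Adam22 step was 0.46 (adjusted p = 0.106 by limma), and with a common median 0.32 (adjusted p = 0.250). Fitted on the compared populations only, its adjusted p was 0.112.

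Further rises were smaller or less steady. Adamtsl1 rose by 1.01 ± 0.25 (adjusted p = 0.0112) and Adamtsl5, which also lacks the protease, by 1.33 ± 0.34 (adjusted p = 0.0150). Other Adamtsl1 probe sets, at means of 4.95 and 5.85, changed by 0.16 and 0.09. With the mean of its probe sets the Adamtsl1 step was 0.42 (adjusted p = 0.264 by limma). Adam15 rose by 0.92 ± 0.23 (adjusted p = 0.0134). Adam4, whose relatives are testis genes, rose by 1.21 ± 0.33 (adjusted p = 0.0204). Adam23, like Adam22 without a working protease, rose by 0.81 ± 0.25 (adjusted p = 0.0320). Other Adam23 probe sets, at means of 5.07 and 4.98, changed by -0.22 and 0.02. With the mean of its probe sets the Adam23 step was 0.20 (adjusted p = 0.199 by limma). Adamts19, named after its value was seen, rose by 0.73 ± 0.23 (adjusted p = 0.0397) at 4.33 to 5.37. Without the arrays in doubt, 8 members (11.6%) were called in this step, against 11.6% of all genes, and Mmp2, Adam4, Adam15, Adam23, Adamts15, Adamts19, Adamtsl1 and Adamtsl5 were among those lost. For several of them replicate 3 of Thy+6C3-CD105- was the highest array: Adam23 was at 6.74 there against 5.73 and 5.89, and Adamts19 at 5.37 against 4.33 and 4.48. Fitted on the compared populations alone, 5 members (7.25%) were called, against 6.5% of all genes.

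Adamts6, Mmp16 and Adamts3 were the 3 members that fell. Adamts6, a relative of Adamts10, stood at 4.89, 4.75 and 5.23 in Thy+6C3-CD105- cells and at 6.59, 6.29 and 7.42 in Thy-6C3-CD105- cells, a step of -1.81 ± 0.30 (adjusted p = 0.000678). The groups were apart and the call held under every alternative and left-out array. Mmp16, a membrane-type MMP, stood at 8.10, 8.42 and 7.45 against 8.89, 8.78 and 8.64, a step of -0.78 ± 0.24 (adjusted p = 0.0357). All 4 of its probe sets were lower in both Thy steps. Adamts3, which removes the amino-terminal propeptide of procollagens, stood at 8.23, 9.24 and 8.39 against 10.36, 9.83 and 9.55, a step of -1.30 ± 0.42 (adjusted p = 0.0426). The calls of Mmp16 and Adamts3 were lost without the arrays in doubt (adjusted p = 0.0937 and 0.105 by limma). The 7 chondrocyte markers were lower in this step as well, and the 4 osteoblast markers too.

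The Thy steps use separate arrays, and 5 members rose in both: Adam22, Adamts8, Adamts15, Adamtsl1 and Mmp23. Of these, Mmp23 alone kept its call in both steps under every alternative and left-out array. Of the 22 members called in either step, 19 had the same sign in both, and 0 were called in opposite directions. These 22 were picked by a call in the same steps, and the like share of all called genes is not given. Their agreement is therefore not read as a trait of the family. Over all 69 members 41 (59.4%) had the same sign in both steps, and over all genes 55.4%. The changes differed in size for Mmp11, at 2.03 and 0.77, and for Adamts12, at 1.56 and 0.07, but the interaction of Thy and CD105 was not called for either.

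Mmp9, gelatinase B, and Mmp23 rose with 6C3 among Thy-CD105+ cells, 2 of 69 members (2.90%) against 1.36% of all genes called, 0.561% higher. Mmp9 stood at 6.36, 7.36 and 7.18 in Thy-6C3+CD105+ cells and at 5.64, 5.54 and 6.23 in Thy-6C3-CD105+ cells. The groups were apart, and the step was 1.16 ± 0.25, 2.23-fold (adjusted p = 0.0226). Mmp23 stood at 9.83, 10.02 and 9.93 against 9.22, 8.75 and 8.88, a step of 0.98 ± 0.18 (adjusted p = 0.00849), and kept the call in 4 of 6 fits that left out an array. Mmp3, stromelysin-1, which cuts proteoglycans and activates other MMPs, stood at 8.04, 8.45 and 7.49 against 6.97, 6.01 and 5.60, without overlap. Its step of 1.80 ± 0.46 missed the threshold (adjusted p = 0.0703) and leaving out 1 array at a time gave adjusted p from 0.0466 to 0.384, under 0.05 in 1 of 6 fits. Groups did not overlap for 15 higher and 3 lower members, against 16.3% of all genes. The Mmp9 call was lost without replicate 1 or 2 of Thy-6C3-CD105+ and without replicate 2 or 3 of Thy-6C3+CD105+, with adjusted p from 0.109 to 0.170. The 7 neutrophil markers averaged 5.06 to 6.30 on the neonatal arrays. The 7 osteoclast markers averaged 5.83 to 6.07 on the Thy-6C3-CD105+ arrays and 5.93 to 6.34 on the Thy-6C3+CD105+ arrays. Of these, Ctsk, which encodes the protease cathepsin K, rose in this step (1.02 ± 0.20, adjusted p = 0.0123), and the other 6 averaged 4.86 to 5.32. The part of these cells in the Mmp9 result was not tested.

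Among Thy-CD105- cells the 6C3 step held 1 member call (1.45%), against 2.74% of all genes, 1.24% higher and 1.5% lower, so it holds no result on the family. The member was Mmp23, at 9.86, 9.48 and 9.58 against 8.72, 8.92 and 9.10, a step of 0.73 ± 0.18 (adjusted p = 0.0370). The call was lost in 5 of 12 alternatives, with adjusted p of 0.169 for the values as deposited, 0.422 with a common median, 0.110 when grouped by title, 0.199 with the compared populations only and 0.0573 with the replicate number as a block. It was kept in 2 of 6 fits that left out an array. Mmp9 stood at 6.83, 6.48 and 6.78 against 5.62, 5.92 and 5.91, apart but not called (0.88 ± 0.25, adjusted p = 0.0706). Mmp3 stood at 7.20, 7.21 and 7.47 against 6.45, 5.86 and 8.08, with overlap, a step of 0.50 ± 0.46 (adjusted p = 0.667). Without replicate 3 of Thy-6C3-CD105-, the array at 8.08, the Mmp3 step was 1.14 (adjusted p = 0.240). Groups were apart for 14 higher and 5 lower members, against 17.6% of all genes. Mmp3 lies in the row of 8 Mmp genes on chromosome 9, and the other 7 (Mmp12, Mmp1b, Mmp1a, Mmp10, Mmp8, Mmp20 and Mmp7) had means of 3.49 to 6.19 and array values of 3.11 to 6.66, with 0 of them called in any step.

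**Figure D3:**
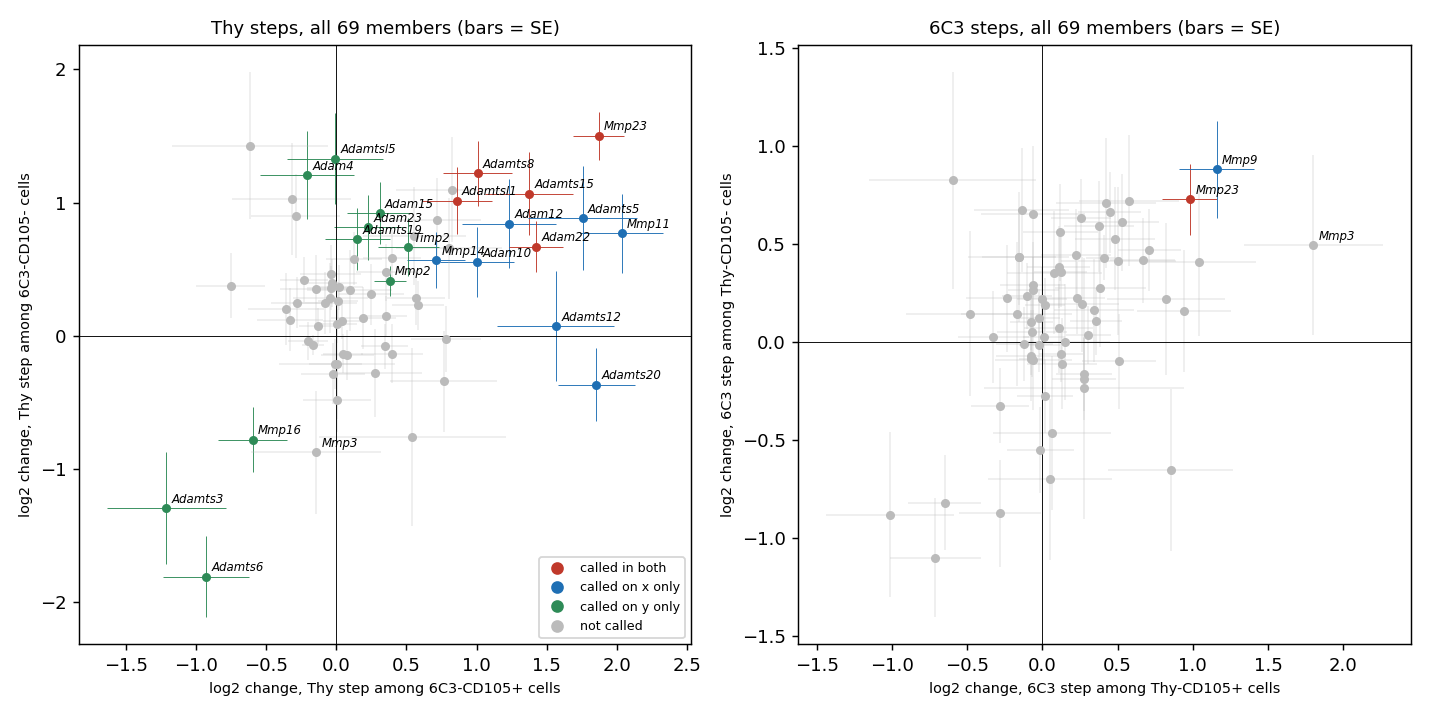
Log2 change (antigen-positive minus antigen-negative) of all 69 members, with CD105+ cells on the x axis, CD105- cells on the y axis and bars for the SE of the fit, for Thy on the left and 6C3 on the right. Red marks members called in both steps, blue those called on x, green those called on y and grey those not called. In the Thy panel Mmp23, Adamts8, Adamts15, Adamtsl1 and Adam22 are red, and in the 6C3 panel Mmp23 is red and Mmp9 blue.

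Among Thy+6C3- cells 1 of 69 members (1.45%) was called for CD105, against 1.02% of all genes, 0.824% higher and 0.192% lower. This count depended on the fit: with array weights it was 17 (8 higher, 9 lower, 24.6%), against 14.1% of all genes, and with a common median 4. The called member was Adamts20, at 5.30, 5.74 and 5.27 in Thy+6C3-CD105+ cells against 4.31, 3.56 and 3.28 in Thy+6C3-CD105- cells, a step of 1.72 ± 0.27, 3.30-fold (adjusted p = 0.00228). Its groups were apart and the call held under every alternative and left-out array that gave a value, without the arrays in doubt included. The Adamts20 Thy step was 1.85 among CD105+ cells and -0.37, not called, among CD105- cells. The difference was 2.22 ± 0.39 (adjusted p = 0.0147 by limma, 1 of 69 members against 0.269% of all genes, 0.242% higher and 0.0275% lower). This difference missed the threshold without the arrays in doubt (2.00, adjusted p = 0.0503) and without replicate 3 of Thy-6C3-CD105+ or replicate 2 of Thy+6C3-CD105+. Mmp11 (1.14 ± 0.30, adjusted p = 0.0774), Adamts12 (1.32 ± 0.42, adjusted p = 0.119) and Mmp9 (0.80 ± 0.25, adjusted p = 0.118) were higher on all Thy+6C3-CD105+ arrays than on the Thy+6C3-CD105- arrays but were not called. At an unadjusted p under 0.05 there were 18 members (26.1%), against 22.4% of all genes, and groups were apart for 9 higher and 9 lower members, against 24.8% of all genes.

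Among Thy-6C3- cells and among Thy-6C3+ cells 0 members were called by limma for CD105, against 0.0055% and 0% of all genes. At an unadjusted p under 0.05 there were 1 and 2 members (1.45% and 2.90%), against 1.75% and 2.74% of all genes. Groups were apart for 3 higher and 5 lower members in Thy-6C3- cells, against 6.33% of all genes, and for 1 higher member in Thy-6C3+ cells, against 6.21%. The interaction of 6C3 and CD105 was called for 0 members and 0% of all genes, with 1 member (1.45%) at an unadjusted p under 0.05, against 2.98% of all genes.

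Of the 4 inhibitors, Timp2 alone was called, in 1 step. Timp2, which blocks MMPs and also takes part in the activation of Mmp2 by Mmp14, stood at 13.29, 13.31 and 13.30 in Thy+6C3-CD105- cells against 12.39, 12.96 and 12.56 in Thy-6C3-CD105- cells. This step of 0.67 ± 0.22 (adjusted p = 0.0415) was the single TIMP call among the 7 steps, and it was kept in 1 of 6 fits that left out an array. The call was kept in 8 of 12 alternatives. With the values as deposited the step was 0.44 (adjusted p = 0.129 by limma), and with a common median 0.30 (adjusted p = 0.389). In the CD105+ background Timp2 stood at 13.10, 12.86 and 13.25 against 12.30, 12.97 and 12.41, with overlap (0.51 ± 0.22, adjusted p = 0.221). Timp1 ranged from 10.81 to 11.85 over all neonatal arrays, its population means from 11.20 to 11.64, and its adjusted p in the F-test was 0.588. Timp3, which binds to the matrix, stood at 10.14, 10.87 and 10.78 in Thy+6C3-CD105+ cells and at 9.61 to 10.36 in the other populations, and its Thy step there was 0.57 (95% interval 0.13 to 1.01, adjusted p = 0.136). Timp4 stood at 4.53 to 6.01. By the F-test none of the 4 TIMP genes was called, with adjusted p of 0.0920 for Timp2, 0.105 for Timp3, 0.251 for Timp4 and 0.588 for Timp1 by limma.

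**Figure D4:**
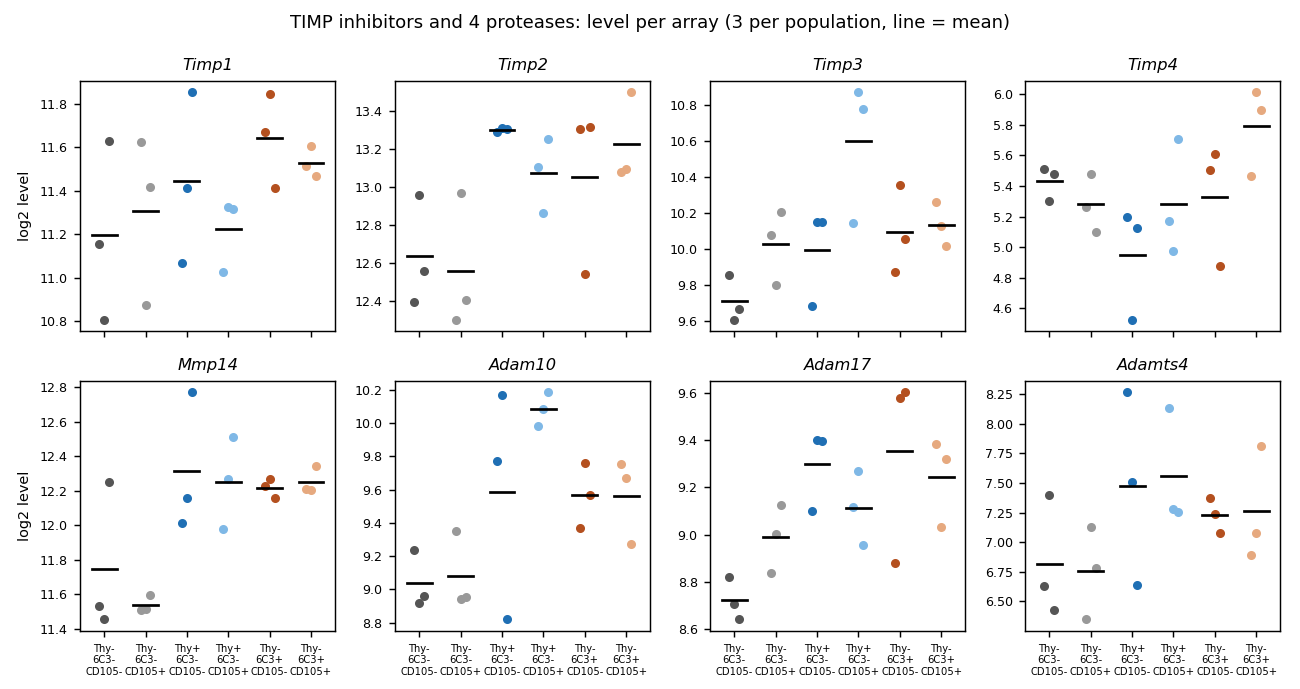
Level per array (log2) of the 4 TIMP genes and 4 other proteases, 1 panel per gene, with 3 points per sorted population and a line at the population mean. Timp1 lies at 10.81 to 11.85 over all populations, while Timp2 lies at 13.29 to 13.31 on the Thy+6C3-CD105- arrays and at or below 12.97 on all Thy-6C3- arrays.

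Mmp2, gelatinase A, the partner of Mmp14 and Timp2, rested on its choice of probe set. It stood at 13.33, 13.40 and 13.57 in Thy+6C3-CD105- cells against 12.86, 13.00 and 13.21 in Thy-6C3-CD105- cells, a step of 0.41 ± 0.11 (adjusted p = 0.0212). The groups were apart. The other Mmp2 probe set, at a mean of 12.87, changed by -0.17 in the same step and by -0.02 in the Thy step of CD105+ cells, so no direction is given for Mmp2. Without the arrays in doubt its step was 0.34 (adjusted p = 0.0703). Adam17, the sheddase of tumour necrosis factor, was not called in any step, and its largest change was 0.63 with 6C3 among CD105- cells (adjusted p = 0.119).

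Genes that act with these enzymes were followed as a list of 31 genes, of which 29 were measured: activating proprotein convertases, tetraspanins that carry Adam10, procollagen processing enzymes and other matrix proteases and inhibitors. With Thy in CD105+ cells 3 rose (Tspan17, Plat and Pcolce) and 2 fell (A2m and Pcolce2), while 6.66% of all genes were called. In CD105- cells 6 rose, among them Bmp1 and Ctsk, and 3 fell, while 18% of all genes were called. With 6C3, 2 rose and 2 fell in CD105+ cells, while 1.36% of all genes were called. Among CD105- cells 3 rose and 2 fell with 6C3, while 2.74% of all genes were called. For CD105, 0 of 29 were called in each of the 3 steps, and the share of all genes was at most 1.02% per step. Pcolce, which speeds removal of the carboxy-terminal propeptide of procollagen, rose in both Thy and both 6C3 steps, by 0.54 to 0.85. Its relative Pcolce2 fell in the same 4 steps, from population means of 12.13 and 12.47 in Thy-6C3- cells to 11.05 to 11.45 in the other populations. A2m, a broad protease inhibitor of the blood, fell in the same 4 steps, from 8.69 and 7.98 in Thy-6C3- cells to 5.17 to 5.86 elsewhere. The 4 steps share Thy-6C3- arrays between the Thy and 6C3 comparisons, so they do not count as separate evidence.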

How the data were processed

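Each of 19 Affymetrix mouse genome arrays measured RNA amplified in a pair of rounds, per the labels' protocols. The authors deposited log2 expression values for 45101 probe sets, by steps not given in the sources used here. Of the probe sets, 34945 had 1 gene symbol in the annotation table, and each of 18193 genes took the one whose mean over 18 neonatal arrays was highest. The values were quantile normalized and fitted by limma (version 3.58.1, R 4.3.3), each population having its own mean, with an eBayes trend, 12 residual degrees of freedom and two-sided tests. Arrays carry no counts, and 3 arrays per population limit the precision.

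Members and gene lists were chosen with earlier results of these data known. Named genes were the TIMP genes, up to 8 rises and 8 falls per step, members called by the F-test, and Mmp2, Mmp9, Mmp14, Adam10, Adam17, Adamts4 and Adamts5. Promoters were read from RefSeq (GRCm38.p6). Same-numbered replicates deviated together with correlations of -0.56 to 0.67, so the numbers were not taken to pair arrays.

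The 27 poly-A control probe sets split the arrays into 11 high (6.47 or more) and 7 low (5.33 or less), with every population in both, and all 31 called member steps kept their sign within each set. Each set held 1 or 2 arrays of a population, all of them among the arrays that gave the calls. Keeping the sign was thus largely fixed beforehand and does not count as support. The fit was tested on simulated data with known changes. Alternatives changed the scaling, the genes tested, the probe set choice, the variance model, array weights, blocks, the arrays used and a grouping by title. Plots used Python 3.11.15 (matplotlib 3.10.9, numpy 2.4.6, pandas 2.3.3).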

Additional observations from a re-analysis of the deposited data

Results flagged for a closer look

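The Thy change of Adamts20 differed between the CD105 backgrounds. It was 1.85 among CD105+ cells and -0.37, not called, among CD105- cells, a difference of 2.22 on the log2 scale (SE 0.39, adjusted p = 0.0147 by limma). Adamts20 lay at 5.27 to 5.74 on the 3 Thy+6C3-CD105+ arrays and at 3.12 to 4.84 on the other 15 neonatal arrays. Its level is below the median gene mean on every neonatal array and rests on 1 probe set. With 3 arrays per population, single arrays that stand apart were not searched for.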

How the results depend on the processing

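Of 385 alternative fits of the 32 called member results, 319 kept the call, 65 lost it and 1 reversed: Mmp2 in the Thy step of CD105- cells changed by -0.17 without shared probe sets (adjusted p = 0.417 by limma). Of 198 fits that left out an array, 117 kept the call, 81 lost it and 0 reversed. With array weights the counts of called members were 26 in the F-test (37.7%, against 21.4% of all genes), 22 in the Thy step of CD105+ cells (31.9% against 15.9%), 5 and 4 in the 6C3 steps of CD105+ and CD105- cells (7.25% against 3.58% and 5.80% against 3.44%), 17 in the CD105 step of Thy+6C3- cells (24.6% against 14.1%) and 5 in the Thy by CD105 interaction (7.25% against 3.55%). Over genes above the median gene mean the counts were 8 in the F-test (29.6% against 16.6%), 1 and 2 in the 6C3 steps (3.70% against 2.56% and 7.41% against 5.21%), and 0 in the CD105 step and in the interaction. With a common median they were 1 and 0 in the 6C3 steps and 4 in the CD105 step of Thy+6C3- cells (5.80% against 1.7%), and the median change of all genes moved from 0.13 to -0.05 in the Thy step of CD105- cells and from -0.08 to 0.15 in that CD105 step. The 2 arrays in doubt were left out in an alternative added after seeing the data. Without them the counts were 19 in the F-test (27.5% against 11.7%) and 8 in the Thy step of CD105- cells (11.6% against 11.6%). In the 6C3 steps they were 3 in CD105+ cells (4.35% against 2.45%) and 2 in CD105- cells (2.90% against 3.81%). They were 2 in the CD105 step of Thy+6C3- cells (2.90% against 0.605%) and 0 in the interaction. With the compared populations only they were 5 in the Thy step (7.25% against 6.5%) and 0 in the 6C3 step of CD105- cells. The 6C3 step of CD105- cells gave 2 with the mean of probe sets (2.90% against 2.92%), 2 with the poly-A set as a block (2.90% against 3.55%) and 0 when grouped by title. The CD105 step gave 2 with that block, and the 6C3 step of CD105+ cells gave 0 in the high poly-A set alone. The Thy step of CD105- cells gave 19 with the poly-A set as a block (27.5% against 21.6%). It gave 20 with array weights (29.0% against 18.4%) and 12 over genes above the median gene mean (44.4% against 28.4%). With the replicate number as a block the counts were 14 in the F-test, 13 and 16 in the Thy steps, 2 and 1 in the 6C3 steps and 1 in the CD105 step of Thy+6C3- cells. Leaving out 1 array at a time gave 12 to 18 in the F-test, 5 to 11 and 5 to 17 in the Thy steps of CD105+ and CD105- cells, 0 to 2 in each 6C3 step, 1 to 2 in the CD105 step of Thy+6C3- cells, 0 to 1 in the Thy by CD105 interaction, and 0 in the other CD105 steps and the other interaction. The lowest counts of the Thy steps came without replicate 3 of Thy-6C3-CD105+ and without replicate 1 of Thy-6C3-CD105-, and that of the 6C3 step of CD105+ cells without replicate 2 of Thy-6C3+CD105+. Shares of all genes are not given for the replicate block and the left-out arrays, so those counts are not read against the background. The cause of the shifts in all these counts was not tested, and weak signal limits the 42 members below the median gene mean.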

Other observations

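The single array labelled adult, Thy+6C3+CD105+, has no replicate and no neonatal population of its antigens, and its source field names sternum and ear while its tissue field names limbs. Timp4 stood at 7.15 there, above the 4.53 to 6.01 of the neonatal arrays. Adamtsl3 stood at 9.89 against at most 9.32, and Adamtsl4 at 11.10 against at most 10.68. These 3 members lay above the neonatal range and 15 below it, so 26.1% were outside it, and so were 25.9% of all genes.

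Adamts1 and Adamts5 are neighbours on chromosome 16, as Adamts8 and Adamts15 are on chromosome 9. Adamts5 rose with Thy in CD105+ cells by 1.75, and Adamts1 changed by 0.08 (95% interval -0.32 to 0.47, adjusted p = 0.920 by limma).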
